A study of Mus musculus with 27 samples.

Results

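Messenger RNA of the transforming growth factor beta (TGF-beta) system was followed through osteoblast differentiation in cells from the mouse skull vault. The 10 genes were chosen by name out of 37991 genes measured: the 3 ligands Tgfb1, Tgfb2 and Tgfb3, the 4 latent binding proteins Ltbp1, Ltbp2, Ltbp3 and Ltbp4, the receptors Tgfbr1 and Tgfbr2, and Tgfbi, a matrix protein named for its induction by the ligands. Calvariae came from C57BL/6J-Col3.6 CFP mice aged 5 to 9 days, whose cyan fluorescent protein is driven by a Col3.6 promoter fragment of a type I collagen gene. Digested cells were grown for 4 days, sorted for the fluorescent protein and returned to culture in αMEM with ascorbic acid, beta-glycerol phosphate, fetal bovine serum and antibiotics. All samples shared strain, sort and medium, and only the day differed, in steps of 2 days from day 2 to day 18. Each of the 9 time points was deposited as 3 profiles that carried 1 barcode and came from 3 sequencing lanes, so a time point was treated as 1 library, although the study's methods call such profiles triplicate samples. If they were separate cultures, the lane SDs below would cover cultures too.

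TGF-beta is made as a precursor whose propeptide stays wrapped around the mature growth factor after furin-type cleavage and keeps it latent. The propeptide is usually bound by disulphide bonds to a latent TGF-beta binding protein, which ties the complex to fibrillin and fibronectin in the matrix, and integrins, thrombospondin or proteases release the active ligand. The active ligand brings together a type II receptor (Tgfbr2) and a type I receptor (Tgfbr1), which phosphorylates Smad2 and Smad3. Bone matrix is a large store of latent TGF-beta, and the ligands are known both to recruit and expand osteoblast precursors and to hold back their late maturation.

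The codons of the cleavage site and of the integrin-binding motif, or those aligned with it, lie in exon 5 of 7 of each ligand gene, and are shown to place the 3 ligands beside each other before their levels are compared. Coordinates are on NCBIM37, the build used by the authors. In the windows below, each of 30 coding bases, the capitals mark the 4 codons of the cleavage motif that precedes the mature growth factor, at chr7:26482254-26482283 (plus strand) for Tgfb1, chr1:188454497-188454526 (minus strand) for Tgfb2 and chr12:87402986-87403015 (minus strand) for Tgfb3.
Tgfb1: CGGCACCGGAGAgccctggataccaactat
Tgfb2: CGGAAGAAGCGCgctttggatgctgcctac
Tgfb3: AGGAAGAAGAGGgccctggacaccaattac
The 3 windows open on a run of basic codons and continue into the start of the mature ligand.

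The propeptide windows differ in a feature that matters for activation. In Tgfb1 (codons 244 to 246, chr7:26482152-26482181) and Tgfb3 (codons 261 to 263, chr12:87403103-87403132) the capitals mark the codons of an RGD motif, the integrin-binding triplet through which alpha-v integrins pull latent TGF-beta open. In Tgfb2 the capitals mark the codons that align with that motif (codons 261 to 263, chr1:188454620-188454649), and the annotated Tgfb2 coding sequence held 0 RGD motifs.
Tgfb1: cccaaacgtCGGGGCGACctgggcaccatc
Tgfb3: gaccatggcCGTGGAGACctggggcgtctc
Tgfb2: acatatgccAGTGGTGATcagaaaactata
Of the ligand messages measured here, those of Tgfb1 and Tgfb3 thus encode the RGD motif and that of Tgfb2 does not.

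The total estimated count per time point ranged from 22470195 on day 10 to 62009157 on day 12, and leaving out day 2 changed more of the results below than leaving out any other day. Levels are given as transcript abundance (TPM), which divides by transcript length and can be set side by side for different genes, after each profile was scaled to its upper quartile. The error on a level is the SD over 3 lanes, which covers sequencing and quantification and not cultures or animals. Change over time was tested with edgeR's quasi-likelihood test on the 9 libraries, as a straight line in day (the log2 change over 16 days, with its SE, also where day 2 is left out) and as a smooth curve in day (a natural spline), with Benjamini-Hochberg adjustment over all genes and a threshold of 0.05. These P-values measure the scatter of the libraries around the fitted line or curve, and technical differences between libraries that ran in the order of the days are confounded with differentiation and cannot be told apart.

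Markers were compared with the labelled cell type. By the straight line, 28.3% of all genes tested rose and 26.1% fell, the background for the counts in this paragraph. All 9 osteoblast markers were detected. Their summed level lay between 1617 and 2420 TPM on days 2 to 6 and between 3810 and 4957 TPM on days 14 to 18, and 7 of 9 rose by the straight line, among them Bglap2, an osteocalcin gene (9.21, SE = 0.63, adjusted P = 1.04e-05), and Phex, an osteocyte peptidase (8.23, SE = 0.76, adjusted P = 3.5e-05). Most of that sum was Col1a1, at 1526 TPM on day 2 and 4263 TPM on day 18. The remaining pair passed the curve but not the line: Sp7, an osteoblast transcription factor, was at 32.3 TPM on day 2, 2.77 on day 8 and 10.6 on day 18 (-1.23, SE = 0.83, adjusted P = 0.233), and Alpl, alkaline phosphatase, at 9.13 TPM on day 2, 0.467 on day 6 and 17.6 on day 18 (2.22, SE = 1.22, adjusted P = 0.146). Sp7 and Alpl were picked after their values were seen. Other markers moved as well. The sum of 7 monocyte and macrophage markers was at 24.1 to 61.7 TPM in the early days (2 to 6) and at 522 to 2014 TPM in the late days (14 to 18), and 6 of 7 rose. The sum of 5 adipocyte markers was at 3.21 to 7.44 TPM early and at 188 to 407 TPM late, and all 5 rose. The 4 smooth muscle and myofibroblast markers summed to 3031 to 6182 TPM early and to 987 to 1131 TPM late, and all 4 fell. Endothelial markers summed to between 3.24 and 12.0 TPM (2 rose and 1 fell of 3 tested) and chondrocyte markers to between 50.2 and 112 TPM (2 rose and 1 fell of 4). The 4 osteoclast markers summed to 37.2 to 85.6 TPM early and 204 to 215 TPM late, and 2 of 3 tested rose. Calcr, a defining osteoclast receptor named after its values were seen, was at 0 counts on every day. Several of these sums also came mostly from 1 gene each. On day 18, Lyz2 was at 1855 TPM in the macrophage sum and Ctsk at 193 TPM in the osteoclast sum. On day 2, Acta2 was at 5155 TPM in the smooth muscle sum and Col2a1 at 111 TPM in the chondrocyte sum. In such bulk RNA, a change in the number of cells of a type and a change in RNA per cell cannot be told apart, and the part of these marker shifts in the results below was not tested unless a value is given.

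Of the 10 genes, 5 rose and 1 fell by the straight line, and 4 did not pass. Tgfb2, Ltbp3, Ltbp4, Tgfbr1 and Tgfbr2 rose, and Ltbp1 fell. Across all 15659 genes tested by the line, 54.3% passed, 28.3% rose and 26.1% fell, so a passing gene was no rarity in this time course. All 10 genes passed the smooth curve, which 57.5% of 16256 genes passed. The median line change was 0.66 on the log2 scale over the 10 genes and 0.05 over all genes tested. The plot of levels by day shows that several of the 10 turned within the time course, which a line averages away.

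**Figure D1:**
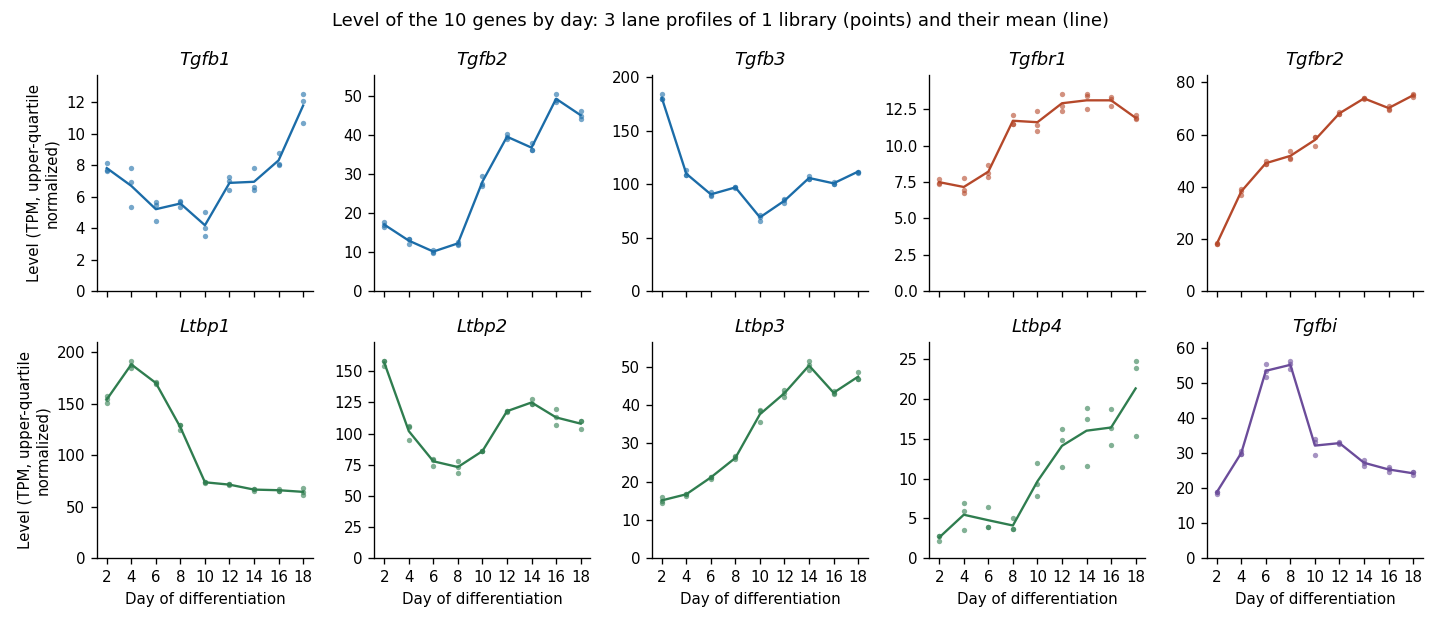
Level of each of the 10 genes (TPM, upper-quartile normalized, linear axis from 0, a separate scale for each gene) against day of differentiation; points are the 3 lane profiles of a day and the line joins their means. Tgfb3 and Ltbp2 were highest on day 2, Ltbp1 on day 4 and Tgfbi on day 8, whereas Tgfb1, Ltbp4 and Tgfbr2 were highest on day 18.

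Ordered by the mean level over 9 days, with the SD over days, Ltbp1 (109 ± 50.7 TPM), Ltbp2 (107 ± 26.1) and Tgfb3 (106 ± 31.3) led the 10 genes. That SD describes change over time and does not say whether genes differ. The order changed with the day: Ltbp1 and Ltbp2 were at 188 and 102 TPM on day 4 and at 64.4 and 108 TPM on day 18. Tgfbr2 followed at 55.9 ± 18.8 TPM. Ltbp3 (33.4 ± 13.7), Tgfbi (33.2 ± 12.7) and Tgfb2 (27.9 ± 15.3) came next. Tgfbr1 (10.8 ± 2.46), Ltbp4 (10.5 ± 6.67) and Tgfb1 (7.05 ± 2.18) were lowest. Ltbp4 was below Tgfbr1 on day 2, at 2.61 against 7.49 TPM, and above it on day 18, at 21.3 against 11.9 TPM. The most abundant ligand message was therefore that of Tgfb3, on every day.

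Tgfb3 encodes a ligand best known for palate closure and for its expression in mesenchyme. Its level was 181, 110, 90.7, 97.2, 69.2, 84.8, 106, 101 and 112 TPM in the 9 libraries from day 2 to day 18, with a lane SD of at most 2.86. Day 2 stood far above every other day, day 10 was lowest at 2.62-fold below it, and the last 3 days lay near day 4. The straight line did not pass (log2 change -0.55, SE = 0.31, adjusted P = 0.159), whereas the curve did (adjusted P = 0.000454), spanning 1.14 log2 units between its high on day 2 and its low on day 10. Both rested on the day 2 library: without it the line gave 0.07 (SE = 0.23, adjusted P = 0.832) and the curve no longer passed (adjusted P = 0.099).

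Tgfb2 encodes the ligand that lacks the RGD motif shown above and is needed for normal skull development. Its level was 17.1, 13.0, 10.2, 12.3, 28.1, 39.6, 36.8, 49.3 and 45.1 TPM in the 9 libraries from day 2 to day 18, with a lane SD of at most 1.31. The values fell into a low run up to day 8 and a high run from day 10, with a 2.29-fold step between days 8 and 10 and no overlap between the runs. This cut, used again for latent binding proteins below, was placed after the values were seen. It is a description and carries no test. The share of all genes without overlap at this cut was not counted, so the gap is not taken as particular to these genes. Tgfb2 rose by the line (log2 change 2.02, SE = 0.42, adjusted P = 0.00236) and passed the curve (adjusted P = 1.06e-05), and without day 2 the rise was 2.68 (SE = 0.45, adjusted P = 0.0013).

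Tgfb1 encodes the ligand that is most abundant in bone matrix. Its message was the scarcest of the 10 genes on average, at 7.83, 6.70, 5.22, 5.58, 4.20, 6.89, 6.96, 8.32 and 11.8 TPM in the 9 libraries from day 2 to day 18, with a lane SD of up to 1.24. The series dipped to day 10, the shallowest library with 121 counts for this gene, and was 2.80-fold higher on day 18. Some neighbouring days, such as days 12 and 14, differed by less than the lane SD, but day 18 lay above every other day. The line did not pass (log2 change 0.50, SE = 0.30, adjusted P = 0.188) and the curve did (adjusted P = 0.00228), and without day 2 the line passed at 0.95 (SE = 0.29, adjusted P = 0.0237). The line change also leaned on day 18, and without that library it was 0.12 (SE = 0.32, adjusted P = 0.774). The late values stood beside the rise of the macrophage markers, whose sum reached 877 TPM by day 16 and 2014 TPM by day 18. Macrophages express Tgfb1, and their part in its level was not tested.

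The make-up of the ligand messages shifted from Tgfb3 towards Tgfb2. On days 2, 8, 10 and 18, Tgfb3 made up 87.9%, 84.5%, 68.2% and 66.3% of the summed ligand TPM and Tgfb2 made up 8.30%, 10.7%, 27.7% and 26.8%. Tgfb1 stayed between 3.80% and 6.98%. The summed level itself was 206 TPM on day 2, 102 TPM on day 10 and 168 TPM on day 18, so ligand message was most plentiful at the start and scarcest in the middle. These shares are descriptive and carry no test.

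**Figure D2:**
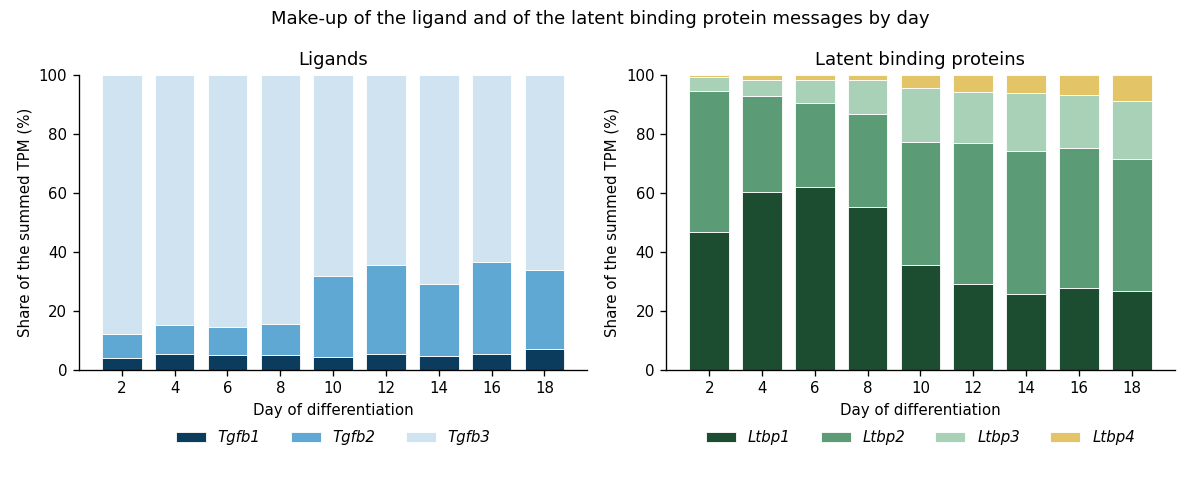
Stacked bars give, for each day, the percentage of the summed TPM of the 3 ligands (left) and of the 4 latent binding proteins (right) that each gene supplied, from means over 3 lanes. Tgfb2 stood at 8.30% to 10.7% of ligand message up to day 8 and at 24.5% to 31.1% from day 10, and Ltbp1 went from 62.1% of latent binding protein message on day 6 to 26.8% on day 18.

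The promoters of Tgfb1 and Tgfb2 are shown because the messages of these ligands followed different courses. RefSeq promoter entries on GRCm38.p6 matched 9 of the 10 genes, with 13 entries. Tgfb3 had no entry, so its promoter was not searched. The 250 bases before each start were searched on both strands for the TATA box (TATAAA), the E-box (CACGTG) and the GC box (GGGCGG). The Smad element (CAGACA) and the cyclic AMP response element (TGACGTCA) were searched in the same way. Capitals mark the motifs found in a stretch from 67 to 22 bases before the start, at chr1:186706011-186706056 (minus strand) for Tgfb2 and chr7:25686935-25686980 (plus strand) for Tgfb1.
Tgfb2: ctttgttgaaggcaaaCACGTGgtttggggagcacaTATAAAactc
Tgfb1: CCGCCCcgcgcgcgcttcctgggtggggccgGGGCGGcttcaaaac
The Tgfb2 promoter held TATAAA, which 12.4% of 32851 promoters hold, CACGTG, which 6.02% hold, and a CAGACA at 204 bases before the start, which 17.1% hold. The Tgfb1 promoter held 5 copies of GGGCGG or its reverse complement, a motif present in 32.7% of promoters, and no TATAAA. Neither GGGCGG nor CAGACA was particular to these ligands. GGGCGG was also found for Ltbp2, Tgfbr1, Tgfbi and Ltbp4, with 3 to 7 copies in the Ltbp4 entries. CAGACA was also found for Ltbp1 and Tgfbr1. Among the other genes, 1 of the Ltbp1 promoters held TGACGTCA, present in 1.55% of promoters. A match describes the letters and is not evidence of binding.

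By Pearson correlation of log2(TPM + 0.1) over the 9 time points, among 7656 genes with a mean of at least 10 TPM, the genes most like Tgfb2 were Npr3, a natriuretic peptide clearance receptor (r = 0.994, 12.4 TPM on day 6 and 66.7 TPM on day 18), and Cnrip1 (r = 0.981). Those most like Tgfb3 were Bmp2k (r = 0.955) and Slain2 (r = 0.953), both lowest on day 10 and highest on day 2. Those most like Tgfb1 were Nr1d1, a repressor of the circadian clock (r = 0.951, 12.9 TPM on day 10 and 39.3 TPM on day 18), and Cmtm6 (r = 0.923). These coefficients were picked as the highest among these genes over the same 9 libraries and are given as a description only.

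Among the latent binding proteins, the course of Ltbp1 was opposite to those of Ltbp3 and Ltbp4. Ltbp1, the founding member, which binds the propeptide of every ligand and anchors to fibronectin and fibrillin, was at 154, 188, 170, 127, 73.7, 71.4, 66.6, 66.0 and 64.4 TPM in the 9 libraries from day 2 to day 18, with a lane SD of at most 3.21. It was high up to day 8 and then flat, with no overlap between days 2 to 8 and days 10 to 18. Ltbp1 fell by the line (log2 change -1.89, SE = 0.25, adjusted P = 0.00018) and passed the curve (adjusted P = 1.04e-06), and without day 2 the line change was -2.04 (adjusted P = 0.000518). The smooth muscle and myofibroblast markers fell too, and summed to 6182, 4159, 3031, 2093 and 1348 TPM from day 2 to day 10. Their part in the fall of Ltbp1 was not tested.

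Ltbp2 is the member that binds fibrillin but not latent TGF-beta, and is thus a matrix protein rather than a carrier. Its level was 157, 102, 77.8, 73.2, 86.0, 118, 125, 113 and 108 TPM in the 9 libraries from day 2 to day 18, with a lane SD of at most 6.50. The values dipped to day 8 and came back to a second, lower high on day 14. The straight line did not pass (log2 change -0.16, SE = 0.30, adjusted P = 0.67), but the curve passed (adjusted P = 6.72e-06), and also without day 2 (adjusted P = 0.000809), when the line turned to 0.44 (SE = 0.23, adjusted P = 0.135). An antisense gene, D030025P21Rik, overlaps Ltbp2 and held 760 counts over all profiles, against 4106 or more for Ltbp2 on any day.

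Ltbp3 binds the propeptides efficiently and is the member whose loss in mice disturbs skull and long bone growth. Its level was 15.1, 16.7, 21.1, 26.2, 37.6, 43.1, 50.3, 43.2 and 47.4 TPM in the 9 libraries from day 2 to day 18, with a lane SD of at most 1.82. It climbed on every step to day 14, and every day from day 10 was above every earlier day. Ltbp3 rose by the line (log2 change 1.78, SE = 0.24, adjusted P = 0.000194) and passed the curve (adjusted P = 1.41e-06), and the rise was 1.72 without day 2 (adjusted P = 0.0015).

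Ltbp4, which binds chiefly the Tgfb1 propeptide and also guides elastic fibre assembly, rose the most of the 10 genes by the line. Its level was 2.61, 5.46, 4.77, 4.11, 9.65, 14.1, 16.0, 16.4 and 21.3 TPM in the 9 libraries from day 2 to day 18, with a lane SD of up to 5.23. Days 2 to 8 lay below days 10 to 18, although the lanes of a day spread by as much as 32.4% of their mean. The line change was 2.56 (SE = 0.23, adjusted P = 3.33e-05), and 2.50 without day 2 (adjusted P = 0.00024), and the curve passed as well (adjusted P = 9.91e-07). The size of the change depended on the unit, at 8.14-fold from day 2 to day 18 in TPM and 5.06-fold in CPM with TMM factors, which do not divide by length. The mean effective length that RSEM assigned to Ltbp4, a gene with 7 annotated coding transcripts, went from 3896 bases on day 2 to 2760 on day 18, and TPM divides by that length.

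The make-up of the latent binding protein messages shifted as well. Ltbp1 supplied 46.8% of their summed TPM on day 2, 62.1% on day 6 and 26.8% on day 18, while Ltbp3 went from 4.59% to 19.7% and Ltbp4 from 0.796% to 8.83% between day 2 and day 18. Ltbp2 was between 28.4% and 48.5% throughout. The summed level was 328 TPM on day 2, 207 TPM on day 10 and 241 TPM on day 18, and its ratio to the summed ligand level was 1.59 on day 2, 2.58 on day 6 and 1.43 on day 18. Without Ltbp2, which is no carrier, the other latent binding proteins summed to 171 TPM on day 2, 196 TPM on day 6 and 133 TPM on day 18. That sum was above the ligand sum on days 4 to 10 and below it on day 2 and on days 12 to 18, with 129 against 131 TPM on day 12.

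Both receptors rose. Tgfbr2, the type II receptor that binds the ligand, was at 18.2, 38.3, 49.1, 51.9, 58.0, 68.2, 73.9, 70.2 and 75.1 TPM in the 9 libraries from day 2 to day 18, with a lane SD of at most 2.03. A 2.10-fold step between days 2 and 4 was followed by a slower climb, so that day 2 was the lowest by a wide margin. The line change was 1.48 (SE = 0.30, adjusted P = 0.00219) and the curve passed (adjusted P = 8.55e-06). Without day 2 the rise was smaller, at 0.99 (SE = 0.16, adjusted P = 0.00114).

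Tgfbr1, the type I receptor kinase, was at 7.49, 7.16, 8.21, 11.7, 11.6, 12.9, 13.1, 13.1 and 11.9 TPM in the 9 libraries from day 2 to day 18, with a lane SD of at most 0.725. It took a single step between days 6 and 8 and was nearly level on both sides of it. The rise was modest (log2 change 0.82, SE = 0.20, adjusted P = 0.00536; 0.82 without day 2, adjusted P = 0.0219), and the curve passed (adjusted P = 0.000943). The ratio of Tgfbr2 to Tgfbr1 in TPM was 2.44 on day 2 and lay between 4.45 and 6.30 on all later days.

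Tgfbi, an RGD-containing matrix protein induced by TGF-beta in many cells, was the only gene of the 10 whose highest day fell between days 6 and 12. Its level was 18.8, 30.0, 53.4, 55.1, 32.1, 32.8, 27.2, 25.3 and 24.2 TPM in the 9 libraries from day 2 to day 18, with a lane SD of at most 2.52. Days 6 and 8 stood above all others, 2.93-fold above day 2 at the highest. The line did not pass (log2 change -0.57, SE = 0.50, adjusted P = 0.362), the curve did (adjusted P = 2.73e-05), and without day 2 the line passed as a fall (-1.21, SE = 0.38, adjusted P = 0.0263).

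**Figure D3:**
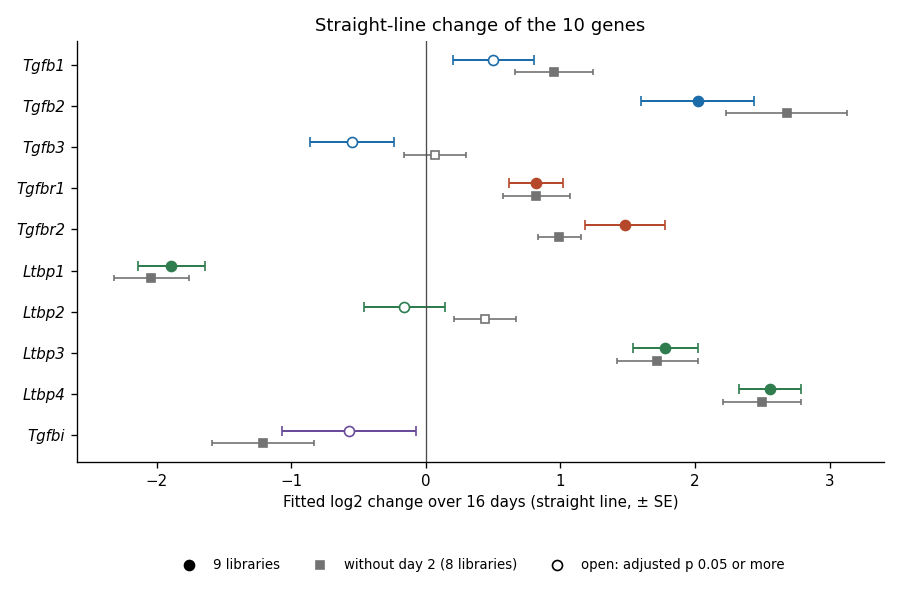
Fitted log2 change over 16 days by the straight line, with SE bars, for each of the 10 genes from all 9 libraries (circles) and without day 2 (squares); filled symbols passed the threshold of 0.05 after adjustment. Leaving out day 2 moved Tgfb3 from -0.55 to 0.07 and Ltbp2 from -0.16 to 0.44, neither past the threshold, and took Tgfb1 and Tgfbi past it.

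The other genes of the pathway were read as lists named by role. Across all genes tested by the line, 28.3% rose and 26.1% fell, and without day 2 these shares were 23.3% and 22.9%. Of 6 other receptors and co-receptors, 2 fell, 0 rose and 4 did not pass, with a median change of -0.25. Cd109, a co-receptor that dampens TGF-beta signalling, fell from 32.6 TPM (day 2) to 15.4 TPM (day 18) (log2 change -1.22, SE = 0.13, adjusted P = 7.63e-05), and Eng, the co-receptor endoglin, from 66.6 to 37.7 TPM (-0.86, SE = 0.21, adjusted P = 0.00594). The counts were the same without day 2.

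Genes that release or process the latent complex split evenly, with 6 of 16 up, 6 down and 4 not past the threshold. Their median change was 0.08, and of all genes tested 28.3% rose and 26.1% fell. Thbs1, thrombospondin 1, an activator that binds the latent propeptide, fell from 2095 TPM (day 2) to 820 TPM (day 18) (log2 change -1.56, SE = 0.16, adjusted P = 5.21e-05), and Itgav, the alpha-v integrin subunit that recognizes the RGD motif, from 132 to 77.1 TPM (-1.02, SE = 0.12, adjusted P = 0.000115). Mmp2, a gelatinase, rose from 222 to 495 TPM (1.04, SE = 0.15, adjusted P = 0.000322). Nrros, which tethers latent TGF-beta on myeloid cells, rose from 0.262 TPM and 16 counts (day 2) to 7.53 TPM (day 18) (5.16, SE = 0.73, adjusted P = 0.000267), alongside the macrophage markers, whose part in it was not tested. Lrrc32, the membrane tether known as GARP, was singled out after its values were seen, as the counterpart of Nrros: it fell from 53.8 TPM (day 2) to 21.0 TPM (day 18) (-1.75, SE = 0.27, adjusted P = 0.000401). Without day 2, 5 of 15 tested rose and 6 fell.

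Among 6 matrix partners of the latent complexes, 2 rose, 1 fell and 3 did not pass. Their median change was 0.63, and of all genes tested 28.3% rose and 26.1% fell. Emilin1, an elastic fibre glycoprotein that restrains processing of the TGF-beta precursor, rose from 38.4 to 185 TPM (log2 change 2.25, SE = 0.36, adjusted P = 0.000527), and Fbln5, fibulin 5, from 25.6 to 62.0 TPM (0.96, SE = 0.17, adjusted P = 0.000878). Fn1, fibronectin, on which Ltbp1 is deposited, was at 898 TPM on day 2, 1968 TPM on day 6 and 548 TPM on day 18 and fell by the line (-1.73, SE = 0.48, adjusted P = 0.0108). Fbn1, fibrillin 1, named after its values were seen, did not pass (-0.29, SE = 0.13, adjusted P = 0.0752). Without day 2, 2 of 6 rose and 2 fell.

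All 5 proteoglycans that bind TGF-beta or its neighbours in the matrix rose, with a median change of 3.50, where 28.3% of all genes tested rose. Dcn, decorin, went from 45.5 TPM (day 2) to 2652 TPM (day 18) (log2 change 5.81, SE = 0.88, adjusted P = 0.000377), and Fmod, fibromodulin, from 215 to 1053 TPM (2.81, SE = 0.39, adjusted P = 0.000232). The count was 5 of 5 without day 2 as well. On day 18 the decorin message exceeded the summed ligand message of 168 TPM many times over.

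Of 10 Smads and their regulators, 2 rose, 4 fell and 4 did not pass, where 54.3% of all genes tested passed, 28.3% up and 26.1% down. The median change of the list was -0.28, and without day 2 the counts were 1 up and 3 down. Smad3, the receptor-activated Smad, rose (log2 change 0.60, SE = 0.19, adjusted P = 0.0218), as did Zfyve9, the anchor that presents Smads to the receptor (0.57, SE = 0.11, adjusted P = 0.00143). Smurf1, a ubiquitin ligase for Smads and receptors, fell (-1.42, SE = 0.17, adjusted P = 0.000114), as did Tgif1, a Smad corepressor (-0.89, SE = 0.12, adjusted P = 0.000207). For Smad2 and Smad4, also picked after their values were seen, the changes were -0.21 (SE = 0.09, adjusted P = 0.0833) and 0.11 (SE = 0.12, adjusted P = 0.439), and neither passed.

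Of 17 genes known as targets of TGF-beta, 12 fell, 4 rose and 1 did not pass, with a median change of -1.83, where 26.1% of all genes tested fell and 28.3% rose. Acta2, smooth muscle actin, fell from 5155 TPM (day 2) to 868 TPM (day 18) (log2 change -2.72, SE = 0.25, adjusted P = 3.53e-05), and Tagln, transgelin, from 770 to 96.9 TPM (-3.12, SE = 0.38, adjusted P = 0.000121). Nox4, an NADPH oxidase, rose from 3.01 to 16.8 TPM (1.81, SE = 0.28, adjusted P = 0.000398), and Col1a1, the type I collagen chain, from 1526 to 4263 TPM (1.23, SE = 0.23, adjusted P = 0.00131). Acta2 and Tagln were also among the smooth muscle and myofibroblast markers, and Col1a1 among the osteoblast markers, and Fn1, Smad7 and Skil in the lists above, so these genes were counted in both. Without day 2, 9 of 17 fell and 3 rose, where 22.9% of all genes tested fell and 23.3% rose.

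A few feedback and direct targets were singled out after their values were seen. Ctgf, connective tissue growth factor, was at 561 TPM on day 2, 28.8 on day 10 and 71.1 on day 18 (-3.06, SE = 0.73, adjusted P = 0.00494). Smad7, the inhibitory Smad, was at 21.8, 3.85 and 4.84 TPM on those days (-1.89, SE = 0.45, adjusted P = 0.00522), and Skil, which encodes the corepressor SnoN, at 38.4, 10.8 and 14.3 TPM (-1.36, SE = 0.33, adjusted P = 0.00578). On day 6, Ctgf, Smad7 and Skil were at 152, 5.71 and 18.9 TPM, so most of each fall in TPM came by then. Postn, the matrix protein periostin, moved the other way, from 83.1 TPM (day 2) to 2090 TPM (day 12) and 1383 TPM (day 18) (4.23, SE = 1.21, adjusted P = 0.0131).

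**Figure D4:**
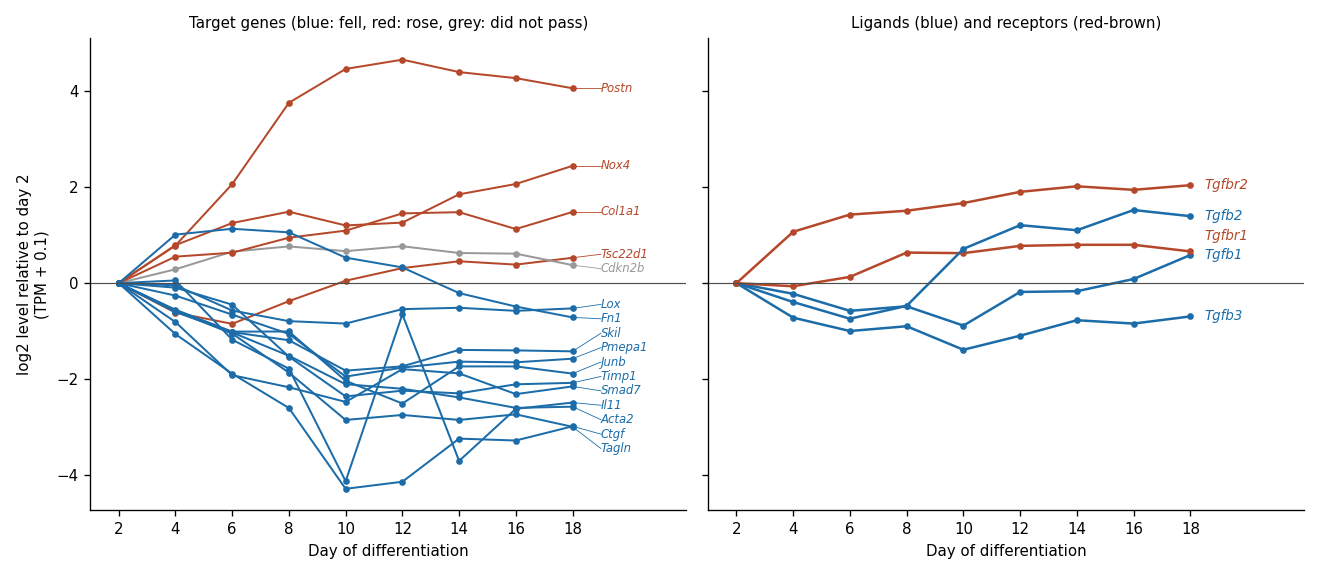
Level relative to day 2 (log2 of TPM + 0.1) against day of differentiation for 16 of the 17 target genes (left) and for the ligands and receptors (right), from means over 3 lanes; colours on the left follow the straight-line test. Postn was the highest of these targets from day 8 on and ended well above its day 2 level, while Ctgf and Tagln were among the lowest on day 18; Tgfbr2 and Tgfb2 ended above their day 2 level and Tgfb3 below it.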

How the data were processed

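RNA sequencing profiles of calvarial cells at 9 time points were used, 27 profiles in all. Per the submitters' processing notes the tools were Bowtie 0.12.9 and RSEM 1.2.8 on NCBIM37, and complementary DNA had been amplified before library construction. Each deposited file gave the estimated count per gene from RSEM, which was not normalized, and TPM, which the authors obtained by dividing by effective transcript length. All 3 profiles of a time point carry 1 barcode, so their counts were summed and rounded, which gave 9 libraries. The paper's methods speak of triplicate samples, and no label ties the profiles to separate cultures, so no biological replication was assumed. Levels are TPM divided by the 75th percentile of values above 0 in each profile, times the mean of the 27 percentiles. Totals per time point had a median of 43146793 counts. At the smallest count of a member, 121, the exact Poisson 95% interval was 4.47 to 6.43 CPM, and it covers counting error only.

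The libraries were fitted by edgeR 4.0.16 in R 4.3.3 (quasi-likelihood F test, factors from the upper quartile, genes kept by filterByExpr at a count of at least 10) with a straight line in day and with a natural spline of 3 degrees of freedom. The fits were tested on simulated data. Common dispersion was 0.0581 around the line and 0.0196 around the curve. Alternatives were TMM factors, DESeq2 1.42.0, no count filter, profiles as separate samples, lanes or days left out, and days 2 to 6 against days 14 to 18. The members and lists were chosen with earlier results of these data known. Named genes were the 10 members, the 2 lowest adjusted P in each direction of each list, and the 2 genes most like each ligand, and others are marked in the text as chosen after their values were seen. All 101 list symbols were matched to genes of the GENCODE annotation of NCBIM37. Nrros, Fbln4 and Ocstamp stand there under other names and were found through synonyms in a GRCm38.p6 gene table. Coding windows were read from GENCODE transcript sequences, from the longest complete coding sequence of each gene, and placed on NCBIM37. Promoters came from a RefSeq table on GRCm38.p6, and both were read with Python 3.11.15 and Biopython 1.88. Strand specificity of the counting is not given in the sources used here. FPKM values were not used. An overlapping gene and a target gene, which stays in the counts of its list, are not reported here.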

Additional observations from a re-analysis of the deposited data

How the results depend on the processing

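The samples were read as 9 libraries without biological replicates, from amplified RNA of cells that also carried markers of other cell types, so P-values measure scatter around a fit in day. Over 70 alternatives the numbers of genes and of the 10 genes called stayed within 1.5 times those reported: 7187 to 10881 genes by the line, 7452 to 12857 by the curve, 6 to 8 members by the line and 9 to 10 by the curve. Of the line changes of the 10 genes, 172 of 180 kept direction and side of the threshold, 6 passed newly and 2 reversed, and of the curve changes 167 of 170 kept both, 1 was lost and 2 reversed. Reversals came with day 2 left out. Over all left-out days and lanes the line change ranged from -0.84 to 0.07 for Tgfb3 and from -0.28 to 0.44 for Ltbp2. On the curve, the difference between the first and last day kept ranged from -0.64 to 0.04 for Ltbp2 and from -0.44 to 0.41 for Tgfbi. Without day 2 that curve difference ran from day 4 to day 18, so the 2 curve reversals set unlike intervals side by side. The cause of the reversals was not tested.

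Replicate numbers coincide with lanes and did not pair the samples: deviations correlated at 0.0055 on average for equal numbers, at most 0.0578, against -0.00275 for unequal ones. With 27 profiles and the replicate block, 10881 genes passed the line, with Tgfb1 at 0.50 (adjusted P = 0.0183) and Tgfb3 at -0.55 (adjusted P = 0.0102), which without the block were 0.0133 and 0.00735, since lanes of 1 library were then counted as samples.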
